A study of Mus musculus with 6 samples.

Results

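The 8 genes described here encode the surface molecules that catch leukocytes on the vessel wall, and they were chosen by name: the selectins Sele and Selp, the selectin ligand Selplg, the immunoglobulin-family molecules Icam1, Icam2, Vcam1 and Pecam1, and the chemokine-binding receptor Ackr1. All 8 were found among the 16533 genes of the deposited tables, and all 8 passed the expression filter that left 16523 genes for testing. RNA was measured in mouse inferior vena cavae ligated for 24 h, a deep vein thrombosis model where halted venous flow is followed by clotting. The mKO mice were Stingf/f Lyzm-Cre+/-, in which Cre under the myeloid Lyz2 locus is meant to delete a loxP-flanked Sting1 gene in neutrophils, monocytes and macrophages. The control mice, titled WT in the labels, were Stingf/f, which carry the same floxed alleles without Cre. Each group has 3 libraries, and each library is a pool of 3 thrombi, with veins and clots together, so p-values measure the spread between pools. Age and sex were not used here.

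Leukocyte capture begins with rolling: endothelial E-selectin (Sele) and P-selectin (Selp) bind glycans on PSGL-1 (Selplg) of passing leukocytes. Firm adhesion follows when leukocyte integrins grip ICAM-1 and VCAM-1, and PECAM-1 serves the passage between endothelial cells. P-selectin is stored in endothelial Weibel-Palade bodies and platelet alpha granules, and the stored protein needs no new RNA to reach the surface. E-selectin, ICAM-1 and VCAM-1 are classically induced by TNF and IL-1 through NF-kB. Whether any of these RNAs, Selp included, was induced by ligation was not tested, since every library came from ligated veins. In ligation models of venous thrombosis, stored P-selectin is known for bringing in the first leukocytes.

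Between 158579864 and 180068483 counts were assigned per library, and the lowest count of any of the 8 genes in any library was 633, for Sele. The 16 endothelial, 8 smooth muscle, 12 platelet, 8 leukocyte, 10 neutrophil and 10 monocyte and macrophage markers were each detected in at least 1 library, so RNA of vein wall and of blood cells was present. mKO library 3 stood apart on the first principal component (46.9% of the variance) and had the most skeletal muscle transcript, at 215 summed CPM (counts relative to TMM-scaled library size) against 3.41 to 59.4 in the others. Control library 2 also stood apart: it lay at one end of the second component (22.5% of the variance), with mKO library 2 at the other, and its smooth muscle markers summed to 3102 CPM, while every other library had 688 to 1510 CPM. The targeted Sting1 ranged from 21.4 to 28.7 CPM in mKO and from 25.1 to 31.4 CPM in control, which a count over the whole gene in mixed tissue cannot read as deletion in myeloid cells. Lyz2, the locus that carries Cre in mKO, ranged from 643 to 1153 CPM in mKO and from 1430 to 1885 CPM in control. By edgeR's quasi-likelihood test 0 of 16523 genes had an adjusted p under 0.05 (0%), 1960 (11.9%) had an unadjusted p under 0.05, DESeq2 called 462 (2.80%) and limma voom called 0.

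RefSeq promoter sequence was at hand for 4 of the 8 genes, Sele, Selp, Icam1 and Ackr1. Its build, GRCm38.p6, is earlier than the GRCm39 named by the submitters. The sequence is shown because NF-kB sites are the textbook route to induction of Sele and Icam1. Each line gives the 160 bases before the annotated start, 5′ to 3′ on the gene's strand, from chr1:164048074-164048233 (Sele, plus strand), chr1:164115104-164115263 (Selp, plus strand), chr9:21015780-21015939 (Icam1, plus strand) and chr1:173333504-173333663 (Ackr1, minus strand). Capitals mark matches to 2 NF-kB patterns, GGGNNNNNCC and GGAANTTCC, each searched on both strands.
Sele: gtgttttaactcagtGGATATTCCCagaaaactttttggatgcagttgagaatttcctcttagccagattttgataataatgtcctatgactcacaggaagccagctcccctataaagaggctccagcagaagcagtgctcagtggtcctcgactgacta
Selp: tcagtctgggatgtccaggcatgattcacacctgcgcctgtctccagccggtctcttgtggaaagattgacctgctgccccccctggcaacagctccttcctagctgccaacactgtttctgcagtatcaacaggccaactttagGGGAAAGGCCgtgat
Icam1: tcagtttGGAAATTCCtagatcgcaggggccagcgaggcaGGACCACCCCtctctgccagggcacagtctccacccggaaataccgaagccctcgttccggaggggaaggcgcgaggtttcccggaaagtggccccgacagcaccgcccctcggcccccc
Ackr1: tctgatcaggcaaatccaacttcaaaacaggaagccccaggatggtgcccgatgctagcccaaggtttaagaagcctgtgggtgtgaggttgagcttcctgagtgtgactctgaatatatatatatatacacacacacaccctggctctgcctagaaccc

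The pattern GGGNNNNNCC was present within 250 bases before the start in 3 of these 4 genes, Sele, Selp and Icam1, and in 45.8% of all 32851 promoters of the same length, so its presence is common. GGAANTTCC was found in Icam1, with its first base 153 bases before the start, and in 0.813% of all promoters. The interferon-gamma type pattern TTCNNNGAA was found in Sele, where it overlaps the capitals, and in Icam1, with its first base 42 bases before the start, against 7.02% of all promoters. TATAAA was found in Sele with its first base 49 bases before the start, against 12.4% of all promoters, and AGATAA in 0 of the 4, against 9.99%. A match describes these letters and does not show binding.

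Per kilobase of annotated exon, the 8 genes spanned a wide range of abundance. Selplg was highest at a mean of 122 CPM per kb over the 6 libraries, at the 98.0 percentile of all genes with an exon length. Pecam1 (33.0 CPM per kb) and Selp (29.0) came next, then Ackr1 (13.5) and Icam1 (11.7), Icam2 (3.96), Vcam1 (2.24) and Sele (1.76, the 44.2 percentile). The order of the adjacent pair held in all 6 libraries for Selplg over Pecam1, Selp over Ackr1, Icam1 over Icam2 and Icam2 over Vcam1. Pecam1 and Selp, Ackr1 and Icam1, and Vcam1 and Sele kept their order in 4 of 6 libraries only, so neighbours within those pairs did not differ beyond their spread. On this scale E-selectin RNA was the scarcest of the 8 on average, and P-selectin RNA stood at the 92.3 percentile.

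The 2 endothelial selectins were the genes whose mKO libraries all lay above the control libraries. Sele (ENSMUSG00000026582, chromosome 1) had 7.23, 5.17 and 6.49 CPM in mKO libraries 1 to 3, against 3.45, 4.20 and 4.23 CPM in control libraries 1 to 3. The groups did not overlap, with means of 6.30 ± 1.04 CPM in mKO and 3.96 ± 0.443 CPM in control (SD, n = 3 each). Its log2 fold change of 0.67 (SE 0.17) did not pass by edgeR's quasi-likelihood test (adjusted p 0.257, unadjusted p 0.0052) and passed by DESeq2 (adjusted p 0.0163). The DESeq2 call was lost without mKO library 1 (adjusted p 0.0721), mKO library 3 (0.119), control library 1 (0.0667) or control library 2 (0.0725), while the edgeR fold change without mKO library 3, the library that stood apart, was 0.65.

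Selp (ENSMUSG00000026580, chromosome 1) had 167, 138 and 124 CPM in mKO libraries 1 to 3, against 120, 121 and 97.6 CPM in control libraries 1 to 3. With means of 143 ± 22.0 CPM in mKO and 113 ± 13.2 CPM in control (SD, n = 3 each), the groups did not overlap, though the lowest mKO library lay just above the highest control library. Selp passed neither test, at a log2 fold change of 0.34 (SE 0.16; adjusted p 0.447 by edgeR quasi-likelihood, 0.267 by DESeq2). Non-overlap in this direction held for 2 of the 8 genes, beside 8.76% of all genes tested. The exact two-sided permutation p for each was 0.1, the smallest that 3 against 3 allows and the value of any gene without overlap. Selp reads may in small part be shared with 2 overlapping transcripts on the other strand, of which Gm16548 had 121 to 189 counts.

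**Figure D1:**
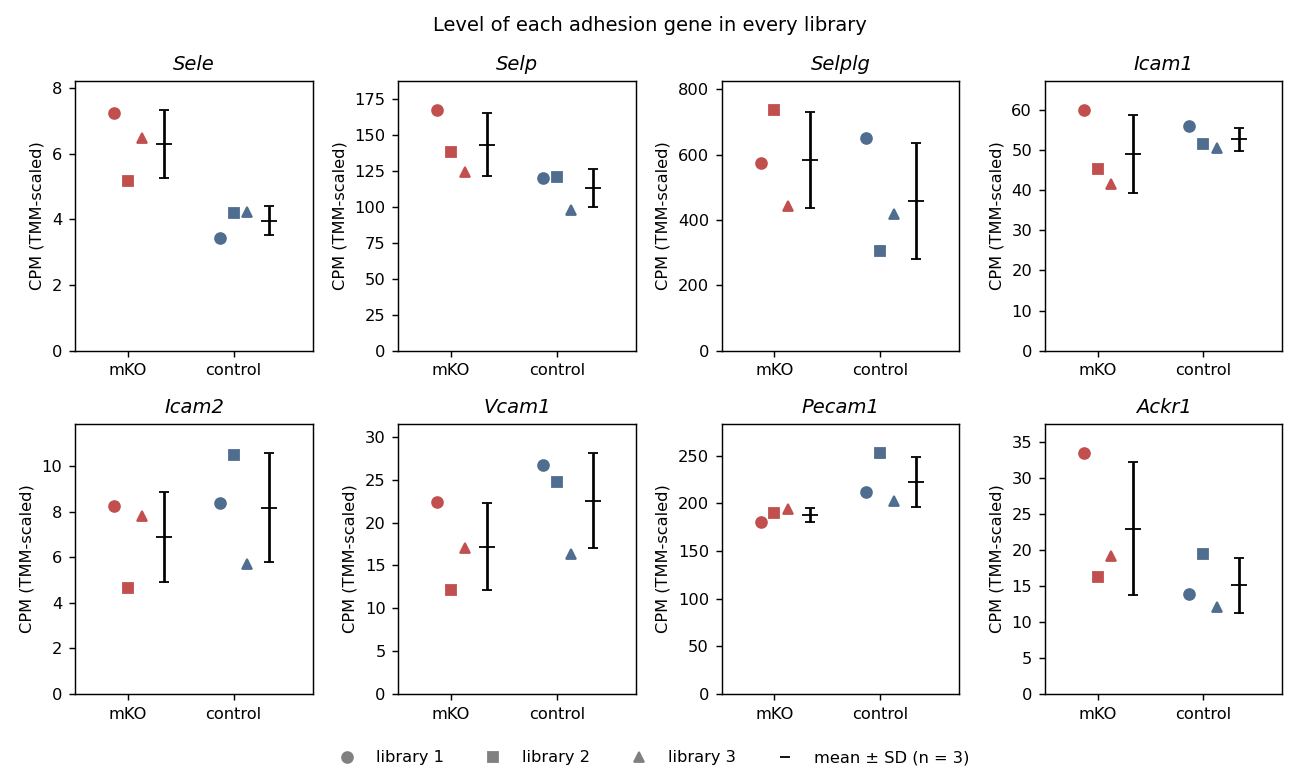
CPM (TMM-scaled, vertical axes from 0) of each of the 8 genes in the 3 mKO libraries (red) and the 3 control libraries (blue), with the mean and SD beside each group. Sele and Selp in mKO lie above every control library, Pecam1 in mKO lies below every control library, and the groups overlap for the other genes.

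The groups of their leukocyte ligand overlapped, though its log2 fold change was close to the 0.34 of Selp. A difference between the ligand and the selectins was not tested. Selplg (ENSMUSG00000048163, chromosome 5) had 574, 737 and 443 CPM in mKO libraries 1 to 3, against 652, 305 and 418 CPM in control libraries 1 to 3. The groups overlapped widely, with control library 1 above 2 of the mKO libraries. The log2 fold change was 0.35 (SE 0.31; adjusted p 0.636 by edgeR quasi-likelihood), and it ran from 0.13 without control library 2 to 0.69 without control library 1. Across the 6 libraries, log2 Selplg had a Pearson correlation of 0.98 with the log2 summed CPM of the 10 neutrophil markers. Both values come from the same library and scaling. Other marker sums also had strong correlations with Selplg, at 0.91 for leukocyte, 0.86 for monocyte and macrophage and 0.83 for erythroid markers. The correlation was -0.84 for smooth muscle and -0.71 for endothelial markers. The neutrophil markers summed to 13777 to 19208 CPM in mKO and 9718 to 16034 CPM in control. Per 100 CPM of the 8 leukocyte markers, Selplg stood at 11.7, 11.7 and 9.34 in mKO and 13.7, 8.74 and 9.77 in control, a log2 difference of 0.04, where the median of all genes on that scale was -0.38.

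Icam1 (ENSMUSG00000037405, chromosome 9), the integrin ligand of firm adhesion, had the fold change nearest 0 of the 8. It had 60.0, 45.3 and 41.6 CPM in mKO libraries 1 to 3, against 56.0, 51.4 and 50.6 CPM in control libraries 1 to 3. The mKO libraries lay on both sides of the control libraries, and the log2 fold change was -0.10 (SE 0.15; adjusted p 0.781 by edgeR quasi-likelihood). Vcam1 (ENSMUSG00000027962, chromosome 3), which binds the integrin VLA-4 of monocytes and lymphocytes, had 22.4, 12.2 and 17.0 CPM in mKO, against 26.7, 24.7 and 16.3 CPM in control. Its groups overlapped, since control library 3 lay below 2 mKO libraries, with a log2 fold change of -0.39 (SE 0.26; adjusted p 0.564 by edgeR quasi-likelihood). Without mKO library 1 the value for Vcam1 was -0.62, without mKO library 2 it was -0.20, and without control library 1 it was -0.25. Of the molecules named above as classically induced by TNF and IL-1, Sele had a positive value that passed by DESeq2 and not by edgeR. Icam1 and Vcam1 had negative values that passed by neither. The earlier annotation lists an antisense transcript over an exon of each of Icam1 and Vcam1, not used here.

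The constitutive endothelial molecules lay lower on average in mKO and did not pass. Pecam1 (ENSMUSG00000020717, chromosome 11) had 180, 190 and 194 CPM in mKO libraries 1 to 3, against 212, 253 and 203 CPM in control libraries 1 to 3. Its groups did not overlap, which held in this direction for 1 of the 8 genes and 9.39% of all genes, with a log2 fold change of -0.24 (SE 0.14; adjusted p 0.506 by edgeR quasi-likelihood). Icam2 (ENSMUSG00000001029, chromosome 11), an integrin ligand of resting endothelium, had 8.24, 4.63 and 7.82 CPM in mKO, against 8.37, 10.5 and 5.70 CPM in control. The Icam2 groups overlapped, with a log2 fold change of -0.25 (SE 0.29; adjusted p 0.721 by edgeR quasi-likelihood), -0.03 without mKO library 2, -0.03 without control library 2 and -0.45 without control library 3. The 8 smooth muscle markers, all with negative fold changes, summed to 688 to 1510 CPM in mKO and 1234 to 3102 CPM in control. Over the 6 libraries their log2 sum had a Pearson correlation of 0.89 with log2 Pecam1. Other marker sums also had strong correlations with Pecam1, at -0.88 for erythroid, -0.81 for neutrophil and 0.74 for endothelial markers. The part of any of these in the Pecam1 value was not tested. Without control library 2 the log2 fold change of Pecam1 was -0.14. Pecam1 and Icam2 are also made by platelets and leukocytes, so their counts in this tissue are not those of endothelium alone.

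Ackr1 (ENSMUSG00000037872, chromosome 1), which marks venular endothelium and binds inflammatory chemokines without signalling, had 33.5, 16.3 and 19.2 CPM in mKO libraries 1 to 3, against 13.8, 19.4 and 12.1 CPM in control libraries 1 to 3. mKO library 1 stood far above the rest, and control library 2 lay above the other 2 mKO libraries. The log2 fold change was 0.61 (SE 0.31; adjusted p 0.481 by edgeR quasi-likelihood, 0.294 by DESeq2), and it was 0.24 without mKO library 1. In the earlier annotation an exon of Ackr1 overlaps one of Cadm3 on the same strand, which averaged 10.9 CPM, so reads there are uncertain. Erythroid cells also make this protein. The 6 erythroid markers summed to 1543 to 2049 CPM in mKO and 1002 to 1345 CPM in control, groups that did not overlap. Over the 6 libraries, their log2 sum had a Pearson correlation of 0.30 with log2 Ackr1. The part of the erythroid markers in the Ackr1 value was not tested.

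**Figure D2:**
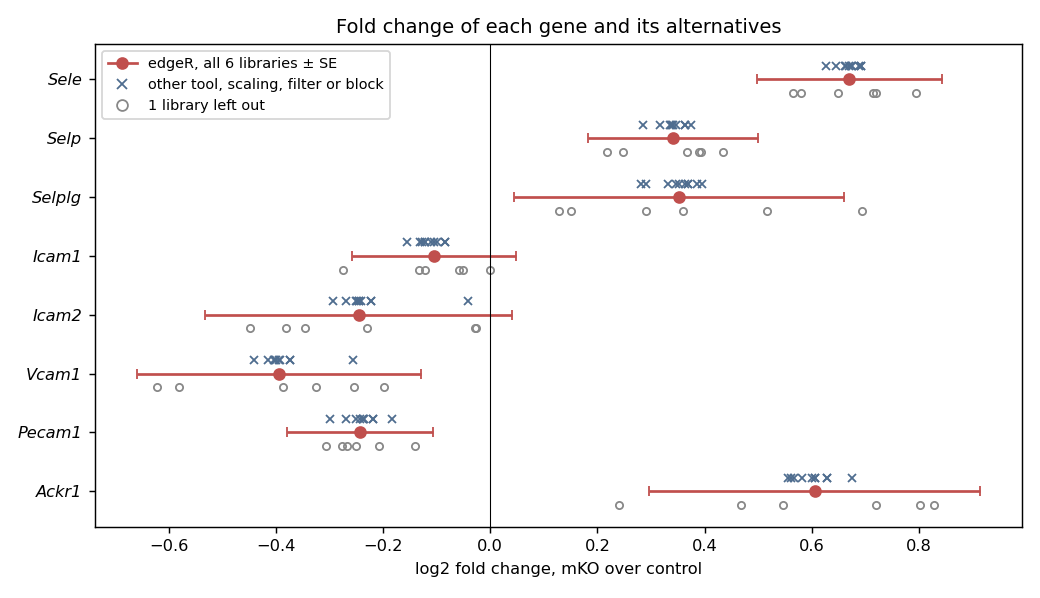
Log2 fold change, mKO over control, of the 8 genes: the edgeR value with its SE (red), other tools, scalings, filters and the block by replicate number (crosses), and each library left out (open circles). Sele runs from 0.57 to 0.79 and Ackr1 from 0.24 to 0.83, and each gene keeps its sign, with Icam1 reaching 0.

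Across the 8 genes, 0 were called by edgeR, 1 by DESeq2 (Sele), beside 2.80% of all genes, and 0 by limma voom. At an unadjusted p under 0.05 by edgeR there was 1 of 8, Sele, beside 11.9% of all genes. The values were positive for 4 genes and negative for 4, with a median of 0.12, against 45.9% positive and a median of -0.03 over all genes tested.

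Because the samples are bulk tissue, fewer cells of a type and less RNA per cell cannot be told apart, so each gene was also set against marker transcripts of the cells that could carry it. The 16 endothelial markers summed to 689, 561 and 749 CPM in mKO libraries 1 to 3, against 792, 868 and 709 CPM in control libraries 1 to 3. The sums overlapped; 15 of the 16 markers had negative values, and their median log2 fold change was -0.25. Smooth muscle markers were lower on average in mKO as well, with a median of -0.80. Relative to that sum, the median log2 difference of all genes (mKO minus control) was 0.22, against which the next values are read.

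Sele stood at 1.05, 0.921 and 0.866 CPM per 100 CPM of endothelial markers in mKO libraries 1 to 3, against 0.435, 0.484 and 0.596 in control libraries 1 to 3. The groups lay well apart, with a log2 difference of 0.91. Selp stood at 24.2, 24.6 and 16.5 per 100 in mKO, against 15.2, 13.9 and 13.8 in control, a log2 difference of 0.59 with mKO library 3 nearest to control. Ackr1 stood at 4.85, 2.90 and 2.56 per 100 in mKO, against 1.74, 2.24 and 1.70 in control, a log2 difference of 0.81. On this scale 3 of the 8 genes lay above control in every mKO library, beside 19.7% of all genes, and 0 of 8 lay below, beside 2.23%. Pearson correlations of log2 CPM with the log2 endothelial sum over the 6 libraries were -0.38 for Sele, -0.34 for Selp and -0.02 for Ackr1. None of these 3 rose with that sum, so the ratios are not read as levels per endothelial cell. The exact two-sided permutation p was 0.1 for Sele, Selp and Ackr1, the smallest possible here. Any gene without overlap has this value, so it restates the non-overlap.

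The other endothelial genes overlapped between groups on this scale. Pecam1 stood at 26.1, 33.8 and 25.9 per 100 in mKO, against 26.8, 29.1 and 28.6 in control, a log2 difference of 0.01. Icam2 stood at 1.19, 0.825 and 1.04 per 100 in mKO, against 1.06, 1.21 and 0.804 in control, where the groups overlap fully. The log2 difference was 0.13 for Icam1 and -0.16 for Vcam1, and both overlapped between groups. For the leukocyte gene Selplg it was 0.64, close to the 0.59 of Selp, and the Selplg groups overlapped.

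**Figure D3:**
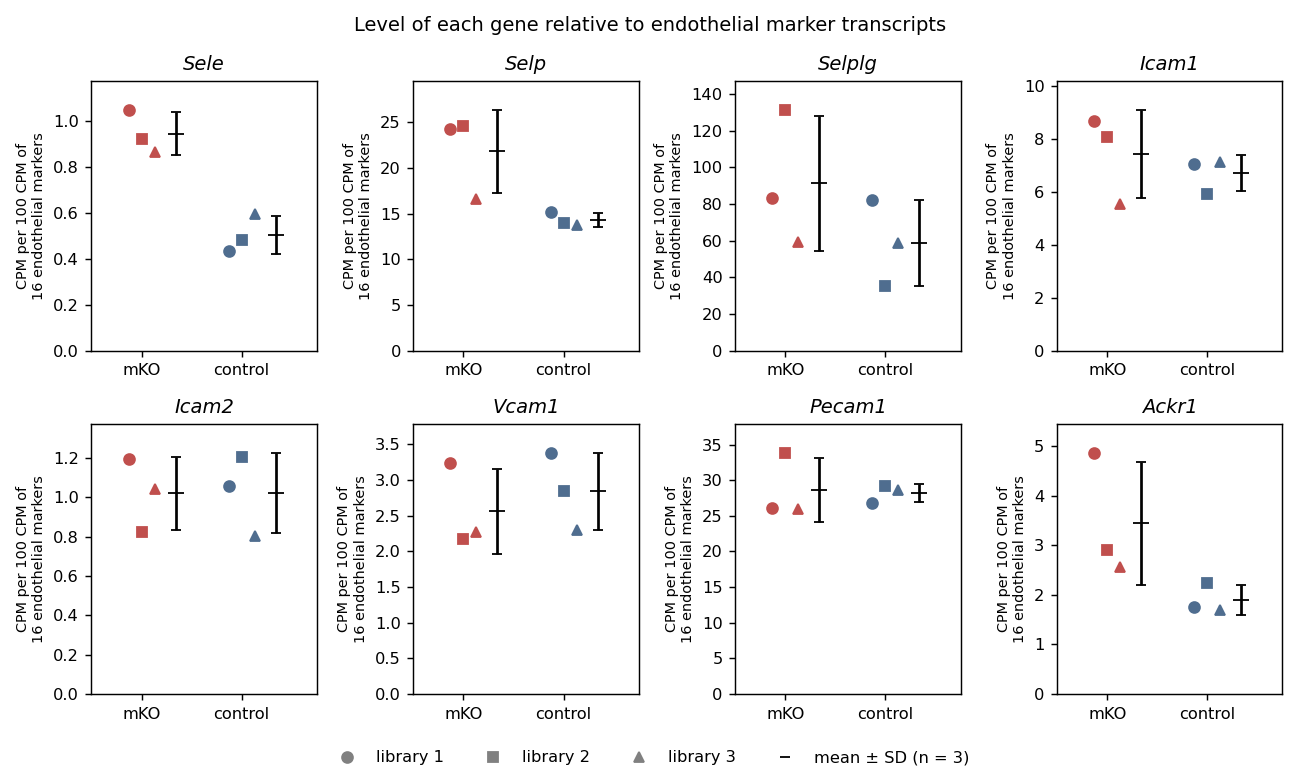
Level of each gene per 100 CPM of the 16 summed endothelial markers (vertical axes from 0) in mKO (red) and control (blue) libraries, with mean and SD. Sele, Selp and Ackr1 lie above every control library in mKO, and Pecam1 and Icam2 overlap.

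The same levels were also set against platelet and leukocyte markers, scales on which the median log2 difference of all genes was 0.49 and -0.38, since the marker sums themselves differ between groups. Per 100 CPM of the 12 platelet markers, Selp, which platelets also carry, stood at 4.66, 2.49 and 3.30 in mKO libraries 1 to 3, against 2.48, 1.90 and 1.37 in control libraries 1 to 3. The platelet markers summed to 3585 to 5549 CPM in mKO and 4844 to 7114 CPM in control, and 12 of 12 had a negative fold change. On the platelet scale the log2 difference of Selp was 0.85 and its groups did not overlap, as for 19.7% of all genes in this direction and 0.375% in the other. Per 100 CPM of the 8 leukocyte markers, Selp stood at 3.41, 2.18 and 2.61 in mKO and 2.52, 3.46 and 2.28 in control, a log2 difference of -0.01. Sele had a log2 difference of 0.31 on the leukocyte scale. The groups overlapped there for both selectins, and 1.08% of all genes lay above control in every mKO library and 24.7% below; both values lay above the median of all genes on that scale. The leukocyte markers summed to 4907, 6316 and 4745 CPM in mKO and 4762, 3490 and 4280 CPM in control, highest in mKO library 2 and lowest in control library 2, and their part in the selectin values was not tested.

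**Figure D4:**
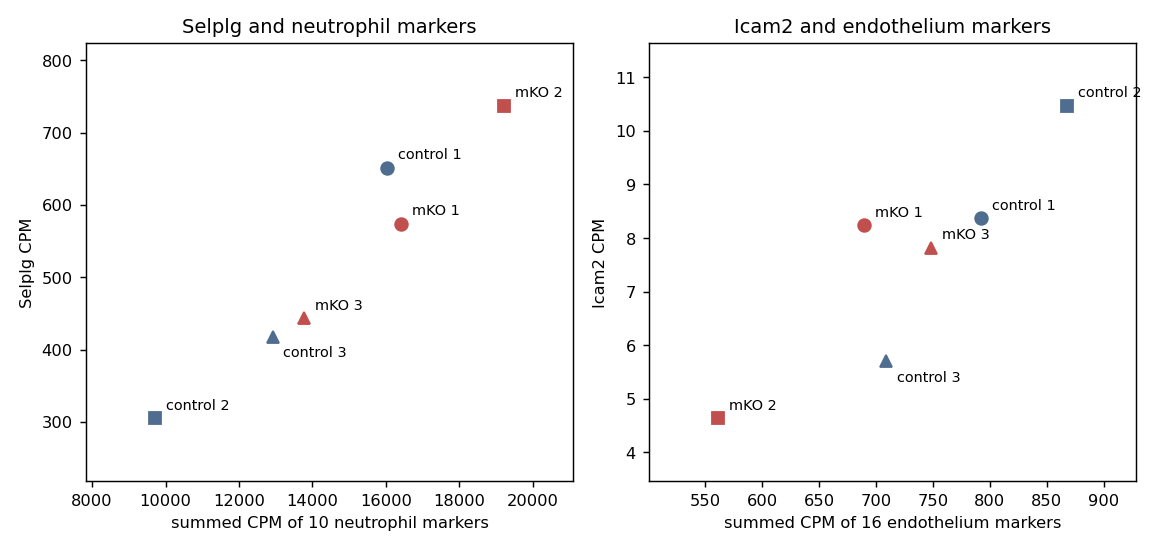
Left, Selplg CPM against the summed CPM of 10 neutrophil markers; right, Icam2 CPM against the summed CPM of 16 endothelial markers, with each point 1 library (mKO red, control blue). Selplg is lowest in control library 2 and highest in mKO library 2, where neutrophil markers are also lowest and highest, and Icam2 is lowest in mKO library 2, where endothelial markers are lowest.

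Over the 6 libraries, log2 Icam2 had a Pearson correlation of 0.89 with the log2 endothelial sum. The correlation was 0.98 with the log2 sum of 8 fibroblast markers, 0.81 with that of smooth muscle and -0.74 with that of leukocyte markers. The fibroblast markers summed to 504 to 843 CPM in mKO and 529 to 1016 CPM in control, and were lowest in mKO library 2 too.

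Over the 6 libraries, the genes whose pattern was most like that of each member were found by Pearson correlation of log2 CPM among 13878 other genes averaging at least 1 CPM. The closest to Sele was Il6, the cytokine interleukin 6, with r = 0.99, followed by 6720427I07Rik (0.99). Il6 had 99.0, 73.3 and 89.8 CPM in mKO libraries 1 to 3, against 57.7, 64.9 and 67.5 CPM in control libraries 1 to 3, values that describe the likeness for which it was picked. For Selp the closest were Arl6ip1 (0.99) and Ctbs (0.98), for Selplg Vopp1 and Zc3h10 (1.00 each), and for Icam1 Nudt9 (0.99) and Gm11518 (0.98). For Icam2 they were Igfbp4 and Creb3l1, for Vcam1 Tbl1x (1.00) and Zfp930 (0.99), for Pecam1 Btbd3 and Rabep1, and for Ackr1 Gins4 and Ptrhd1 (0.99 each), the pairs for Icam2 and Pecam1 rounding to 1.00. These values are a description over 6 points that share library and scaling. Among the members themselves, Icam2 and Vcam1 (r = 0.89) and Selp and Ackr1 (r = 0.87) were the most alike, and Sele and Pecam1 (r = -0.66) and Selplg and Pecam1 (r = -0.69) ran most in opposite directions.

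Leukocyte integrins and their partners, the counter-receptors of the ICAMs and VCAM-1, had 9 of 10 positive values, with a median log2 fold change of 0.33. By edgeR 0 of 10 passed, 1 had an unadjusted p under 0.05 (11.9% of all genes), and DESeq2 called 0 (2.80% of all genes). Groups did not overlap for 1 with mKO above control and 1 with mKO below, beside 8.76% and 9.39% of all genes. Itgam, the alpha chain of Mac-1, averaged 993 ± 200 CPM in mKO and 772 ± 213 CPM in control (SD, n = 3 each), with a log2 fold change of 0.36 (SE 0.25; adjusted p 0.566 by edgeR quasi-likelihood). Itgax, the alpha chain of CD11c/CD18, had 0.63 (SE 0.23), and Itgb1, the broadly expressed beta-1 chain that pairs into VLA-4, had -0.37 (SE 0.17).

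A list of genes for selectin ligands, made up of enzymes that build the bound glycan and of Glg1, a glycoprotein ligand of E-selectin, had 7 of 8 positive values and a median of 0.26. Of these 8, 0 passed by edgeR, 1 had an unadjusted p under 0.05 (11.9% of all genes), and DESeq2 called 0 (2.80% of all genes). Fut4, a fucosyltransferase of leukocytes, averaged 2.91 ± 0.270 CPM in mKO and 2.01 ± 0.269 CPM in control (SD, n = 3 each), with a log2 fold change of 0.53 (SE 0.19; adjusted p 0.354 by edgeR quasi-likelihood). Gcnt1, which makes the core-2 branch on PSGL-1, had 0.45 (SE 0.20), and the sulfotransferase Chst2 had -0.03 (SE 0.11). The groups did not overlap for 2 of the 8, Fut4 and, named after its values were seen, B4galt1, both with mKO above control, beside 8.76% of all genes. The leukocyte and neutrophil sums given above averaged higher in mKO, and their part in both lists was not tested.

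Other endothelial adhesion and junction molecules had 11 of 12 negative values, with a median of -0.28, beside -0.25 for the endothelial markers, with Cdh5 in both lists. By edgeR 0 of 12 passed and 4 had an unadjusted p under 0.05 (11.9% of all genes), while DESeq2 called 1 higher and 1 lower (2.80% of all genes in either direction). Groups did not overlap for 1 with mKO above control and 4 with mKO below, beside 8.76% and 9.39% of all genes. Alcam, a ligand of CD6 on T cells, averaged 88.6 ± 15.7 CPM in mKO and 51.0 ± 2.54 CPM in control (SD, n = 3 each), with a log2 fold change of 0.80 (SE 0.15; adjusted p 0.188 by edgeR quasi-likelihood, 0.000358 by DESeq2). Nectin2, a junction molecule, averaged 7.95 ± 1.19 CPM in mKO and 11.8 ± 0.554 CPM in control (SD, n = 3 each), with a log2 fold change of -0.57 (SE 0.14; adjusted p 0.246 by edgeR quasi-likelihood, 0.0256 by DESeq2). Cd47, the most abundant of the list, had -0.18 (SE 0.21).

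Genes that switch leukocyte and platelet integrins on had 3 positive and 6 negative values and a median of -0.10. Among the 9, 0 passed by edgeR, 1 had an unadjusted p under 0.05 (11.9% of all genes), and DESeq2 called 0 (2.80% of all genes). Groups did not overlap for 1, with mKO above control, beside 8.76% of all genes. Apbb1ip, the Rap1 effector RIAM, averaged 215 ± 36.3 CPM in mKO and 131 ± 34.6 CPM in control (SD, n = 3 each), with a log2 fold change of 0.72 (SE 0.22; adjusted p 0.315 by edgeR quasi-likelihood). Skap1, an adaptor of T cells, had -0.48 (SE 0.30), and talin, Tln1, had 0.04 (SE 0.18).

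A list of cytokine-induced and NF-kB feedback genes had 14 of 16 positive values, some of them near 0, and a median of 0.21. By edgeR 0 of 16 passed, 5 had an unadjusted p under 0.05 (11.9% of all genes), and DESeq2 called 4 (2.80% of all genes, 242 higher and 220 lower), all higher: Ptgs2, and, named after their values were seen, Tnf, Il1b and Nfkbie. Ptgs2, the inducible cyclooxygenase, averaged 247 ± 28.9 CPM in mKO and 169 ± 5.28 CPM in control (SD, n = 3 each), a log2 fold change of 0.55 (SE 0.14; adjusted p 0.246 by edgeR quasi-likelihood, 0.00237 by DESeq2). Cxcl2, the neutrophil chemokine with the highest level of the list, had 0.31 (SE 0.21), and Ccl2, the monocyte chemokine, had -0.07 (SE 0.20). Groups did not overlap for 7 members, all with mKO above control, beside 8.76% of all genes. Neutrophils and macrophages also make Tnf, Il1b, Ptgs2 and Cxcl2, and the part of the leukocyte sums in these values was not tested.

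**Figure D5:**
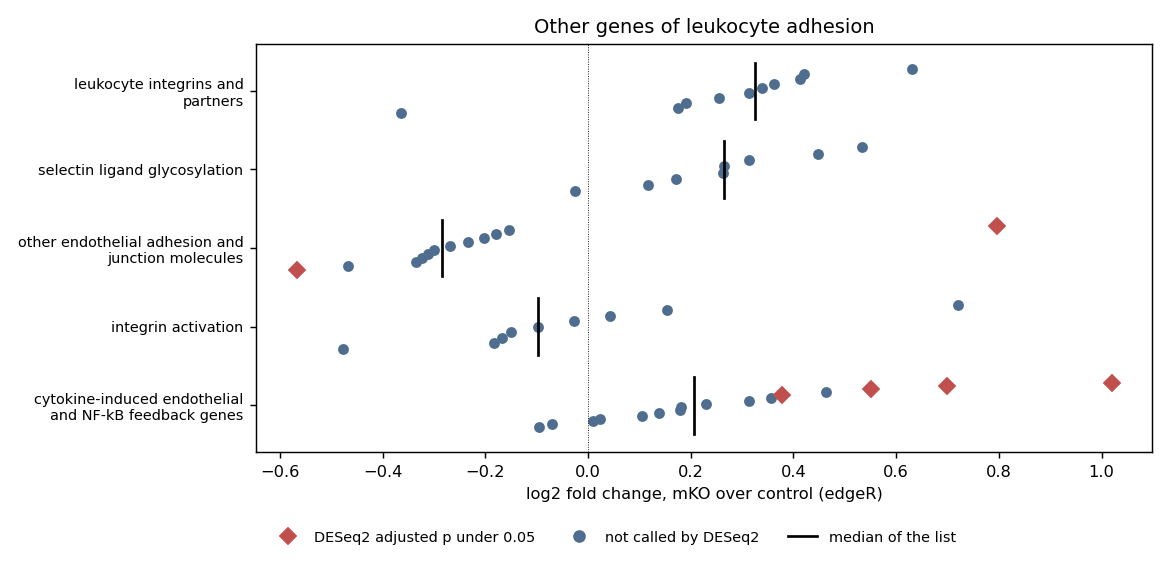
Log2 fold change, mKO over control by edgeR, of each gene in 5 lists of genes that are not among the 8. The bottom list holds cytokine-induced and NF-kB feedback genes, which are not adhesion genes. Diamonds are genes called by DESeq2, and black bars are list medians, which are 0.33, 0.26, -0.28, -0.10 and 0.21 from top to bottom.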

How the data were processed

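Whole-number read counts, 1 table a library with 16533 genes each, were deposited by the authors without normalization. The submitters' processing notes list HISAT2 2.1.0, FastQC 0.11.8, featureCounts 2.0.1, Trim Galore 0.4.0 and GRCm39 without saying what each did. For annotation release, strandedness and shared reads, settings were not given in the sources used here. Testing was that of edgeR 4.0.16 under R 4.3.3 (quasi-likelihood F-test, robust, TMM scaling, default expression filter), with Benjamini-Hochberg adjustment over all 16523 genes tested and a threshold of 0.05. Fold changes are mKO over control, and SE is the value implied by the F-test. DESeq2 1.42.0, limma 3.58.1 voom, other scalings and filters, a block by replicate number and leaving out each library were alternatives. Single values used an exact two-sided permutation test. Exon lengths and overlaps came from GENCODE M21 (GRCm38), and promoters from RefSeq (GRCm38.p6). The fits were tested on simulated data. No pair of libraries agreed within sampling noise.

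The genes and lists were chosen with earlier results of these data known. Named genes were all 8 members; from each list of further genes, those called by edgeR or, with none called, the gene with the smallest p in each direction and the most abundant; and the 2 genes most correlated with each member. Tnf, Il1b, Nfkbie and B4galt1 were named outside this rule after their values were seen. The values of 1 further list gene are not reported here. The leukocyte and platelet scales and the DESeq2 fits without 1 library were added after seeing the data.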

Additional observations from a re-analysis of the deposited data

How the results depend on the processing

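Under the 16 alternatives to the edgeR fit each of the 8 genes kept the sign of its fold change, and only Sele under DESeq2 passed the threshold; among the added DESeq2 fits Icam1 was 0.02 without mKO library 3. Leaving out 1 library moved a value by more than 1.5 times for Ackr1 (0.24 without mKO library 1), Selp (0.22 without mKO library 1), Selplg (0.13 to 0.69), Icam1 (-0.27 to 0.00), Icam2 (-0.45 to -0.03), Vcam1 (-0.62 to -0.20) and Pecam1 (-0.14 without control library 2). edgeR called 0 genes on all 6 libraries and 0 to 7 without 1 library (4 without mKO library 3, 7 without control library 1, 2 without control library 3), and 0 of the 8 in each. DESeq2 called 462 genes on all 6 libraries, 552, 497 and 312 without mKO library 1, 2 or 3, and 764, 243 and 353 without control library 1, 2 or 3, and 1 of the 8, or 0 to 1 without 1 library. Replicate numbers did not pair the libraries (correlations of same-numbered deviations -0.136, -0.152 and -0.267), and with the replicate block 0 genes and 0 members were called, with 1299 genes at an unadjusted p under 0.05. Relative to endothelial markers, leaving out 1 library or using Cdh5 or the mean log2 level as the scale gave 0.81 to 1.04 for Sele, 0.49 to 0.77 for Selp and 0.54 to 1.00 for Ackr1. Within 100 bases before the start, GGGNNNNNCC was found in 1 of the 4 promoters in place of 3, TTCNNNGAA in 1 in place of 2, and GGAANTTCC in 0 in place of 1. Each of the 8 genes had at least 633 counts in each library, and each group has 3 pools.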
